A study of Mus musculus with 8 samples.

Results

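The late phase of activation in wild-type T cells was described by setting cells stimulated for 24 h against cells stimulated for 8 h. The pair of arrays was taken by the array titles, which give the genotype and the hours, so that 2 of the 8 arrays of the study entered the comparison. The comparison and the gene lists used below were chosen with earlier results of these data known. The study measured RNA of mouse splenic T cells on Affymetrix MOE430A_2.0 arrays, on which each gene is read by 1 or more probe sets, each giving a signal intensity. The animals were C57Bl/6 mice, either wild type or labelled as lacking Gfi1, a zinc finger repressor of transcription. T cells were enriched magnetically with a panT-cell kit on an AutoMACS and cultured with anti-CD3 and anti-CD28 antibodies at 2 µg antibody/ml, which engage the T cell receptor complex and its costimulatory receptor. The groups used here are wild-type cells at 24 h, wild-type cells at 8 h, knockout-labelled cells at 24 h and knockout-labelled cells at 8 h, with the wild-type cells at 0 and 4 h given as levels beside them. Each had 1 array, and the titles carry 1 source number per genotype. Changes are therefore given by size, with no p-value. No array used here holds cells kept in culture without the antibodies, so the effect of further stimulation and that of further culture cannot be told apart.

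A T cell triggered through its antigen receptor first transcribes a wave of immediate early transcription factors, cytokines and survival genes, and then enlarges by making ribosomes and taking up nutrients. It commits to division only later, when cyclins and cyclin-dependent kinases release the E2F transcription factors, which switch on the genes for copying DNA, followed by the genes of mitosis. Phosphatases, inhibitors of NF-kB and RNA-binding proteins made in the early wave act back on the receptor's signals and limit them.

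Signals under 141.88, the median over arrays of the 40th percentile, were set to that floor before log2 was taken, and a change with 1 side there is a lower bound. The share of probe sets above the floor was 56.5% at 24 h and 61.1% at 8 h, and the median signal was 224 at 24 h and 247 at 8 h. All 18 probe sets of the hybridisation controls, bacterial and phage transcripts added at hybridisation, were lower at 24 h, with a median log2 change of -0.93 (-1.21 to -0.76). In the knockout-labelled pair the same 18 had a median of 0.48 (0.26 to 0.79). Changes below are on the scale of the deposited signals, on which the middle gene changed by 0.00. Scaling each array to these controls would put the middle gene at 0.80, and of the 34 list medians drawn below, that of the interferon response alone would stay under 0. T cell identity was seen at both times: Cd3e gave 1969 at 24 h and 2502 at 8 h, and Cd3d gave 14783 at 24 h and 14902 at 8 h. The 20 scored genes of the T cell receptor complex and T cell identity summed to 123290.0 at 24 h and 145265 at 8 h, with a median log2 change of 0.01 (-0.02 after quantile normalization).

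Among the 15062 probe sets scored, those with a signal over the floor on 2 or more of the 8 arrays, 831 (5.52%) were at least 2-fold higher at 24 h than at 8 h, and 1034 (6.86%) were at least 2-fold lower. Among the 8457 genes these covered, each read by its brightest probe set on average, 429 (5.07%) rose and 566 (6.69%) fell by at least 2-fold. The shares are the background for every list below. With each array divided by its median signal, 1206 probe sets were higher and 810 lower, so that the larger of the 2 counts depended on that choice. Scaled to the hybridisation controls, all 429 higher genes stayed above 0 and 565 of the 566 lower genes stayed below 0, but only 68 of the lower ones were still lower by 2-fold. Of the 429 genes that rose, 308 had their highest wild-type signal at 24 h, 116 at 0 h and 5 at 4 h. Of the 566 that fell, 254 were highest at 8 h, 169 at 4 h and 143 at 0 h. A gene higher at 24 h than at 8 h was thus, in 116 cases, a gene that had been higher still before stimulation. No gene that rose could be highest at 8 h, and none that fell at 24 h. The times of highest signal of the called genes were therefore partly set by the call. Over all 8457 scored genes, 3341 were highest at 0 h, 1322 at 4 h, 1745 at 8 h and 2049 at 24 h. Ties at the floor were counted at the earliest time. These counts are the background for the times of highest signal given below.

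**Figure D1:**
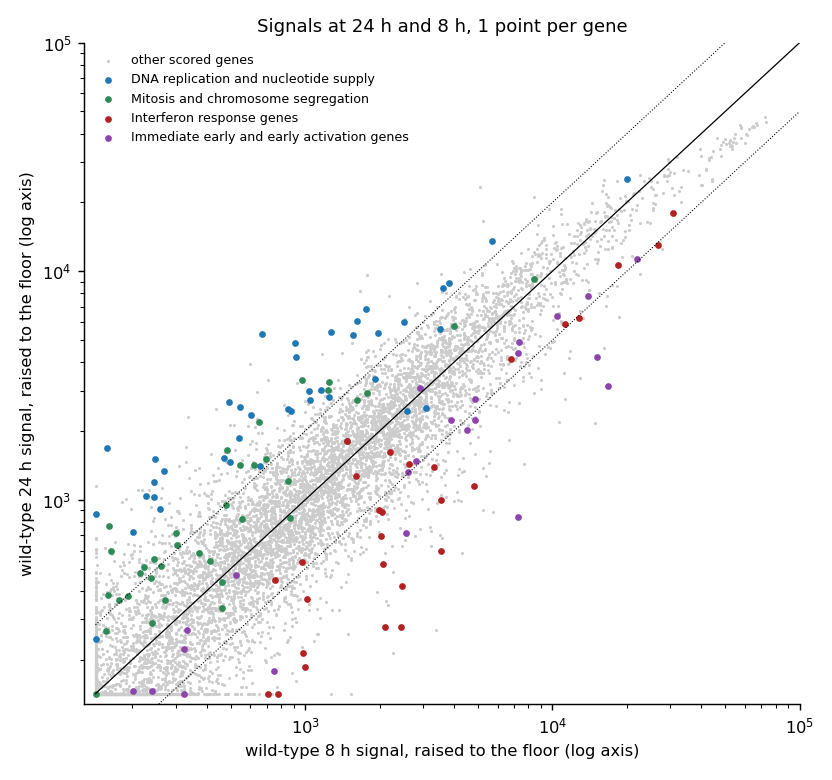
Signal at 24 h (vertical, log axis) against signal at 8 h (horizontal, log axis) in wild-type T cells, 1 point per scored gene, with signals under the floor raised to it. The solid line marks equal signals and the dotted lines 2-fold changes. DNA replication genes lie above the upper dotted line in 34 of 40 cases, and interferon response genes lie below the lower one in 18 of 28.

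Agreement within the arrays was read from genes with more than 1 probe set. Of 176 higher genes with another scored probe set, 154 had the same direction in it and 78 (44.3%) were at least 2-fold higher in it too. Of 235 lower genes, 192 had the same direction and 93 (39.6%) were 2-fold lower in the second as well. In each direction 1 gene had a second probe set that moved 2-fold the other way. A single probe set scattered around its gene with an SD of 0.44 on the log2 scale. Below, other probe sets are given for some genes only, so where none is given agreement is not implied. Probe sets above the floor on both arrays were ranked by mean signal and cut into 4 equal groups. From the dimmest group to the brightest, 15.4%, 15.6%, 13.2% and 6.74% of them passed 2-fold.

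**Figure D2:**
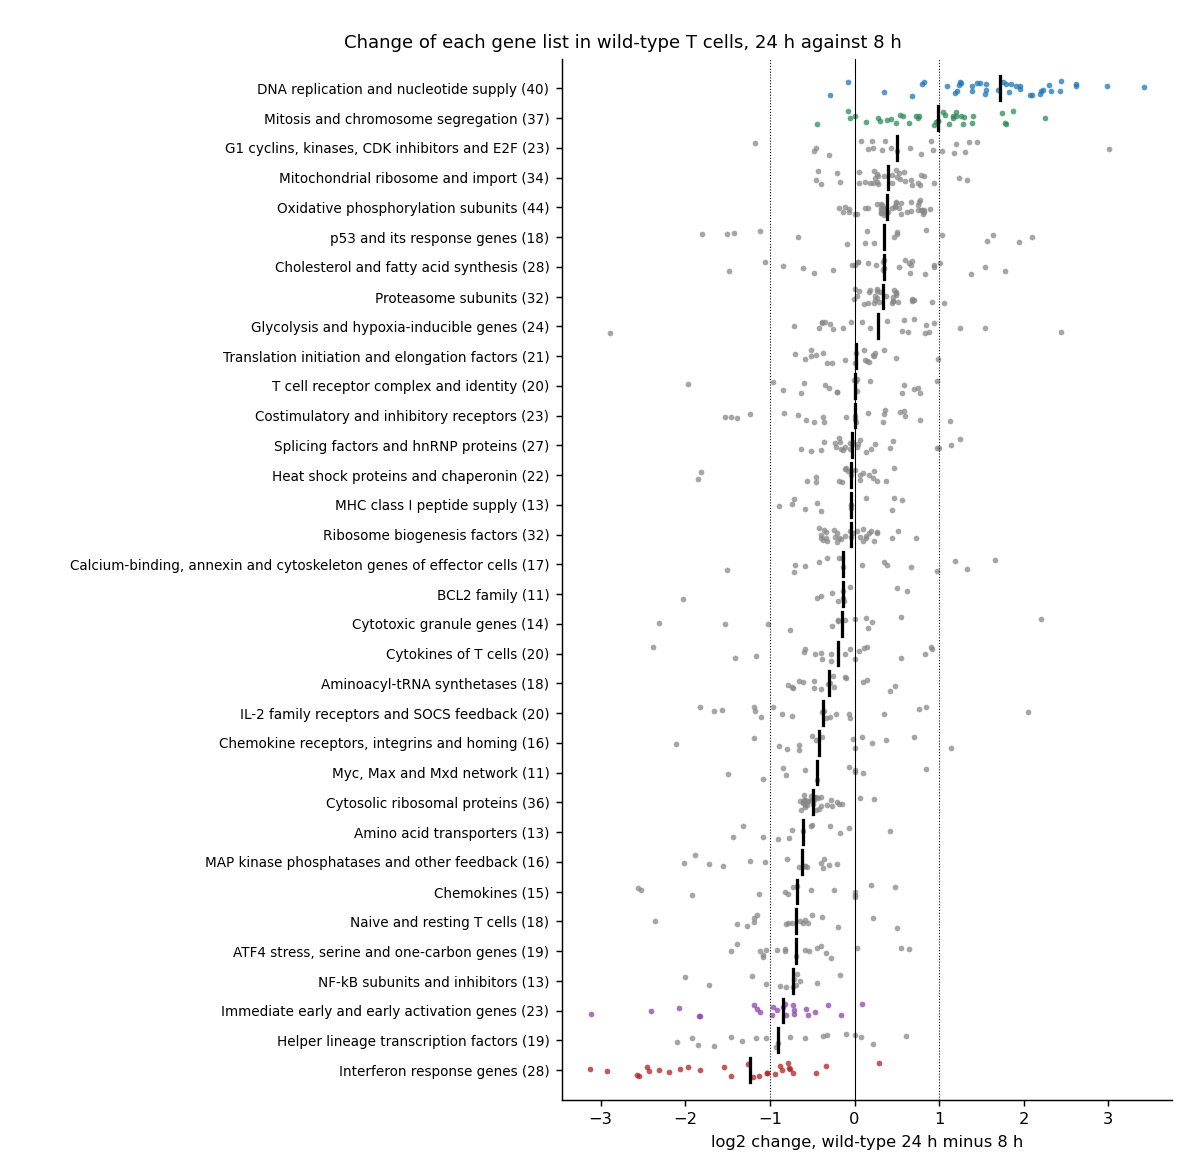
Log2 change at 24 h against 8 h in wild-type cells for each scored gene (points) of 34 gene lists, with the number of genes in brackets. Vertical bars are list medians and dotted lines mark 2-fold changes. DNA replication has the highest median (1.72) and the interferon response the lowest (-1.23). Scaled to the hybridisation controls, the medians of early activation and ATF4 genes turn positive (0.11 and 0.26), as do the other medians drawn below 0 apart from that of the interferon response.

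Genes that copy DNA made up the list with the highest median. Of 40 scored genes of DNA replication and nucleotide supply, 34 rose and 0 fell, with a median of 1.72, and 34 of the 40 had their highest wild-type signal at 24 h. Cdc6, which loads the replicative helicase onto origins, rose most of all genes above the floor on both arrays. Its signals were 1571 at 0 h, 201 at 4 h, 157 at 8 h and 1691 at 24 h, a 10.7-fold rise (log2 3.43). The signal at 8 h was thus close to the floor, and that at 24 h was near the level before stimulation. Orc1, the largest subunit of the origin recognition complex, gave 182 at 0 h, 129 at 4 h, 111 at 8 h and 868 at 24 h. With the 8 h signal under the floor, its rise was at least 6.12-fold. Cdt1, which joins Cdc6 in loading the helicase, changed by 0.68 and did not pass 2-fold, with 1.05 in its other probe set.

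All 6 subunits of the helicase itself rose, Mcm6 by 1.23, Mcm2 and Mcm7 by 1.25, Mcm5 by 1.75, Mcm4 by 1.91 and Mcm3 by 1.95. Mcm2 gave 2771 at 0 h, 1733 at 4 h, 2514 at 8 h and 5995 at 24 h, and its other probe set rose by 2.08. The factors that turn the loaded helicase on moved with it. Mcm10 rose by 2.33, Cdc45 by 2.20 and Gins1, a subunit of the GINS complex, by 2.29.

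At the primase and the polymerases, Prim2, the large primase subunit, gave 724 at 0 h, 307 at 4 h, 247 at 8 h and 1508 at 24 h, a 6.11-fold rise with 2.55 in its other probe set. Its partner Prim1 rose by 2.20, and Pola1, the catalytic subunit of polymerase alpha, by 2.32, with 1343 at 24 h against 269 at 8 h. Pole, of the leading-strand polymerase, rose by 2.08 and Pold1, of the lagging-strand one, by 1.55. The clamp loader subunits Rfc1, Rfc3, Rfc4 and Rfc5 rose by 1.69, 1.55, 2.22 and 1.96. Pcna, the sliding clamp they load, did not pass: it gave 20694 at 0 h, 21892 at 4 h, 20031 at 8 h and 25422 at 24 h, a change of 0.34.

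Rrm2, the regulated subunit of ribonucleotide reductase, which makes the deoxynucleotides, gave 2942 at 0 h, 1073 at 4 h, 672 at 8 h and 5295 at 24 h. This was a 7.88-fold rise, with 2.78 to 2.86 in its other probe sets, and Rrm1, the larger subunit, rose by 2.43. Dut, Tk1 and Dck, which clear dUTP and salvage deoxynucleosides, rose by 2.09, 1.84 and 1.18, with 0.63 in the other probe set of Dut. The enzymes that build pyrimidines for RNA as well as DNA did not pass, with Cad at -0.07 and Umps at -0.29, and thymidylate synthase Tyms gave 246 at 24 h and 72.1 at 8 h, a rise of at least 0.79 from under the floor.

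Chromatin and checkpoint partners of the fork were not scored as a list of their own. Those given here, apart from Dnmt1 and Mms22l, were named for being among the 20 largest rises above the floor on both arrays. Uhrf1, which brings the maintenance methyltransferase to new DNA, rose by 2.44 (2676 at 24 h against 493 at 8 h) and Dnmt1, that methyltransferase, by 1.48. Hells, a chromatin remodeller of dividing cells, rose by 2.72 and Chek1, the checkpoint kinase of stalled forks, by 2.37 with 3.21 in a second probe set. Tipin, of the fork protection complex, rose by 2.30. The nuclease Exo1, the homologous recombination partners Psmc3ip and Fignl1 and the fork repair factor Mms22l rose by 2.42, 2.39, 2.78 and at least 2.10.

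Promoters of 4 replication genes are shown because their genes rose together and carry the letters of the E2F site. Of the 40 genes, 30 had a single promoter in the RefSeq table (build GRCm38.p6), running from 250 bases before to 50 after the start. The E2F letters searched were TTTCCCGC, TTTGGCGC, TTTCGCGC and TTTGCCGC on both strands, and TTTGGCGC and TTTCGCGC can overlap when the site is read both ways. They occurred in 9 of the 30 promoters (30%), against 4.79% of scored genes and 2.32% of all promoters in the table, and in 9.40% of the genes that rose and 3.24% of those that fell. Capitals mark the match in each 80-base stretch, written 5′ to 3′ on the strand of the gene. The stretches are Cdc6 at chr11:98907983-98908062 on the plus strand, Orc1 at chr4:108579374-108579453 on the plus strand, Pola1 at chrX:93632244-93632323 on the minus strand and Mcm5 at chr8:75109326-75109405 on the plus strand, all before the start.
Cdc6: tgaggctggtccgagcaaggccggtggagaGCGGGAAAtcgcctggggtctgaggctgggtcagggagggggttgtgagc
Orc1: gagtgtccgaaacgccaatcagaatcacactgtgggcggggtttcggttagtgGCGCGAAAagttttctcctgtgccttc
Pola1: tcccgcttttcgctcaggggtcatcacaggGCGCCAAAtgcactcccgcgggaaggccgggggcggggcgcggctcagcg
Mcm5: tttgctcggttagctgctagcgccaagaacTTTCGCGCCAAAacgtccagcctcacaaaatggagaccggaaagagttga
The Mcm5 stretch holds 2 matches that overlap on opposite strands. A match of letters does not show that a factor was bound.

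Of 37 scored genes of mitosis and chromosome segregation, 17 rose and 0 fell, with a median of 0.98. Unlike at the replication genes, 28 of the 37 were highest at 0 h and 8 at 24 h. Bub1, a kinase of the spindle checkpoint, gave 1070.2 at 0 h, 275 at 4 h, 161 at 8 h and 766 at 24 h, a 4.75-fold rise, while its other probe set stayed at the floor on both arrays. Aurkb, the kinase that corrects chromosome attachments, gave 488 at 0 h, 181 at 4 h, 163 at 8 h and 599 at 24 h, a rise of 1.88 on the log2 scale. Mad2l1, the checkpoint protein that holds back anaphase, gave 2459 at 0 h, 1483 at 4 h, 970.4 at 8 h and 3359 at 24 h and rose by 1.79. The 24 h signals were several times those at 8 h, and lay below the 0 h signal for Bub1 and above it for Aurkb and Mad2l1.

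Cdk1, the kinase that drives entry into mitosis, rose by 1.74 (2189 at 24 h and 653 at 8 h) and its cyclin Ccna2 by 1.78 (1653 at 24 h and 482 at 8 h). The other probe set of Ccna2 gave 0.93, short of 2-fold. Top2a, Smc2 and Ncaph, which untangle and condense chromosomes, rose by 2.64-fold, 2.44-fold and 2.61-fold, and the kinetochore proteins Ndc80 and Nuf2 by 2.30-fold and 2.11-fold. Among the 20 that did not pass were the mitotic kinase Plk1 at -0.45, the mitotic cyclin Ccnb2 at -0.07, the centromere histone Cenpa at -0.05 and the proliferation marker Mki67 at 0.30. Outside the list, Psrc1, a spindle protein, rose by 2.52 with 3.29 in its second probe set. The kinetochore genes Cenph and Cenpn rose by at least 2.04 and 1.77 and Gtse1 by at least 1.98, each with the 8 h signal at the floor. The other probe set of Cenpn gave 0.65, short of 2-fold.

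Stretches of 3 mitosis promoters are shown because most promoters of this list held the CHR letters, the element through which the DREAM and B-MYB complexes act. TTTGAA, searched on both strands, was found in 21 of 29 promoters (72.4%), against 11.7% of scored genes and 18.5% of all promoters, and in 16.1% of the genes that rose and 10.3% of those that fell. CCAAT, the letters that NF-Y binds, occurred in 22 of the 29 (75.9%), against 39.4% of scored genes, 52.3% of those that rose and 37.5% of those that fell. Capitals mark TTTGAA or its reverse complement. The stretches lie before the start at chr10:69352934-69353013 on the minus strand for Cdk1, chr11:99024319-99024398 on the minus strand for Top2a and chr4:52439046-52439125 on the plus strand for Smc2.
Cdk1: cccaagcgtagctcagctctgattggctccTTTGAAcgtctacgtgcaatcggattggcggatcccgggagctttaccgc
Top2a: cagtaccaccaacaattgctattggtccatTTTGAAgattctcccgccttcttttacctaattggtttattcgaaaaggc
Smc2: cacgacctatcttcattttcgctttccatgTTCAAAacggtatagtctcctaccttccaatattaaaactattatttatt
Each is read on the strand of its gene, and the Cdk1 and Top2a promoters hold 2 such matches in the 250 bases before the start.

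Among cyclins, their kinases and inhibitors and the E2F genes, 7 of 23 rose and 1 fell (median 0.51). Ccne2, 1 of the pair of E cyclins that start S phase, gave 458 at 0 h, 178 at 4 h, 142 at 8 h and 1147 at 24 h, an 8.07-fold rise, and Ccne1 rose by at least 1.36 on the log2 scale. Their kinase Cdk2 rose by 1.20, the phosphatase Cdc25a that activates it by 1.30 and Skp2, which marks the inhibitor p27 for degradation, by 1.18. Other probe sets gave 0.48 for Cdc25a and 0.68 to 1.64 for Skp2. E2f1 rose by 1.04, and E2f8, a repressor made in S phase, rose by at least 1.44. The D cyclins, which act earlier, did not pass: Ccnd2 stood at -0.48 with a range of -1.34 to 0.88 over its other probe sets, Ccnd3 at 0.91 and Ccnd1 at -0.30 with its 24 h signal under the floor. Cdkn1b, which encodes p27, changed by -0.46.

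**Figure D3:**
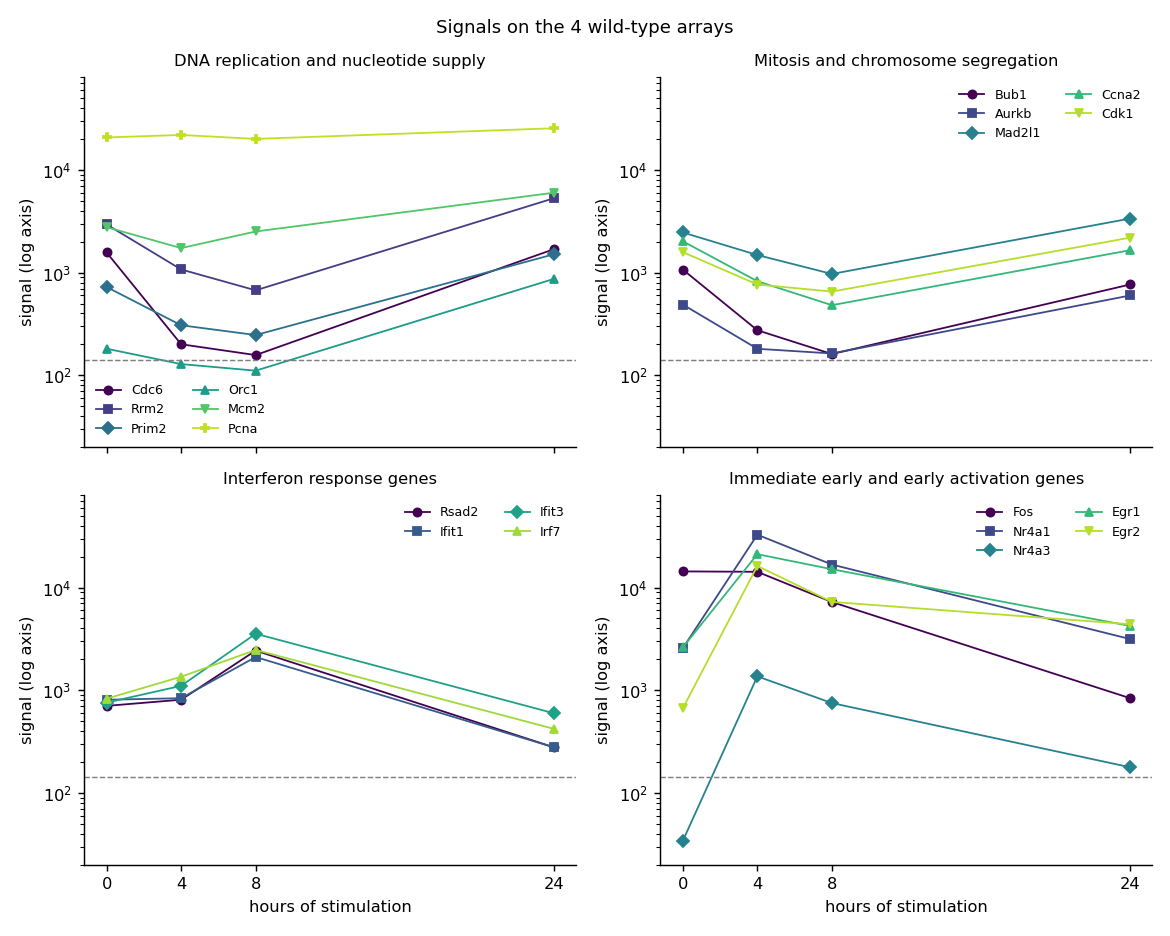
Wild-type signals (log axis) at 0, 4, 8 and 24 h of stimulation for named members of 4 gene lists, 1 array per time, with the floor as a dashed line. Replication and mitosis genes are lowest at 4 or 8 h and higher at 24 h, interferon response genes are highest at 8 h, and Nr4a1, Nr4a3, Egr1 and Egr2 are highest at 4 h.

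Early activation genes moved the other way. Of 23 scored immediate early and early activation genes, 8 fell and 0 rose, with a median of -0.84 (0.11 scaled to the hybridisation controls), and 18 of the 23 were highest at 4 h. Fos, a subunit of the AP-1 factor, gave 14366 at 0 h, 14241 at 4 h, 7233 at 8 h and 838 at 24 h, an 8.64-fold fall. Its signal was high in the unstimulated cells too, unlike that of the nuclear receptor Nr4a1, which reports T cell receptor signalling and gave 2569.9 at 0 h, 32700.1 at 4 h, 16756 at 8 h and 3153 at 24 h, a 5.31-fold fall. Nr4a3 gave 34.2 at 0 h, 1367 at 4 h, 751 at 8 h and 178 at 24 h and fell by 4.22-fold. The 24 h signal of Nr4a1 stayed above that at 0 h, and that of Nr4a3 came close to the floor.

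Egr1, a zinc finger factor of the same wave, gave 2611 at 0 h, 21139 at 4 h, 15086 at 8 h and 4230.4 at 24 h, a change of -1.83, while Egr2 gave 668 at 0 h, 16224 at 4 h, 7253 at 8 h and 4394 at 24 h and at -0.72 did not pass. Junb fell by 2.16-fold, Fosb by at least 2.29-fold to under the floor, and Jun stood at -0.92, with -1.99 in its other probe set. Of the factors of sustained activation, Myc changed by -0.84, Nfatc1 by -0.98 and Batf by 0.09, none past 2-fold. Irf4 has no settled direction, with -0.96 in its brighter probe set and 0.90 in the other. The Myc network as a whole had 0 higher and 2 lower of 11 (median -0.44, or 0.14 scaled to the hybridisation controls), with its antagonist Mnt at -1.50.

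Some negative regulators of these signals fell too. Of 16 MAP kinase phosphatases and other feedback genes, 6 fell and 0 rose (median -0.62, or 0.33 scaled to the hybridisation controls). Dusp1, which inactivates MAP kinases, gave 10259 at 0 h, 7837 at 4 h, 4009 at 8 h and 988 at 24 h, a fall of 4.06-fold from 8 h, so that it was highest before stimulation. Rgs2, which shortens G protein signals, gave 4432 at 0 h, 5817 at 4 h, 2583 at 8 h and 699 at 24 h, a fall of 3.69-fold. Zfp36, which speeds the decay of cytokine mRNAs, fell by 2.94-fold, and Dusp2 stood at -0.80.

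Of 13 NF-kB genes, 4 fell and 0 rose, with a median of -0.73 (0.23 scaled to the hybridisation controls), and 11 were highest at 4 h. Relb, a subunit, gave 531 at 0 h, 3019 at 4 h, 2781 at 8 h and 695 at 24 h, and Tnfaip3, the deubiquitinase A20 that shuts the pathway off, gave 3317 at 0 h, 13349 at 4 h, 4398 at 8 h and 1336 at 24 h. They fell by 4.00-fold and 3.29-fold, as Rela did by 2.31-fold, whereas Rel and the inhibitor Nfkbia stood at -0.71 and -0.81, with -1.27 to -0.95 in the other probe sets of Nfkbia. Nfkbiz, an inducible nuclear cofactor of NF-kB outside the list, fell by 5.33-fold.

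Interferon response genes had the lowest median of the 34 lists drawn. Of 28 scored, 18 fell and 0 rose, with a median of -1.23, or -0.28 scaled to the hybridisation controls, where the middle gene stood at 0.80. Rsad2, an antiviral enzyme, gave 705 at 0 h, 809 at 4 h, 2434 at 8 h and 278 at 24 h, an 8.74-fold fall. Ifit1, which binds foreign RNA ends, gave 809 at 0 h, 837 at 4 h, 2108 at 8 h and 278 at 24 h, and Ifit3, its partner, gave 758 at 0 h, 1104 at 4 h, 3554 at 8 h and 598 at 24 h. All 3 were highest at 8 h and lower at 24 h than before stimulation.

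Irf7, the factor that amplifies type I interferon, gave 829 at 0 h, 1355 at 4 h, 2469.8 at 8 h and 421 at 24 h, a 5.86-fold fall. Sensors and effectors fell alongside it: Oasl2 by 5.37-fold, Ifih1, the RNA sensor MDA5, by 3.92-fold and Oas2 by 4.58-fold. Mx1, Oasl1, Ddx60 and Dhx58 reached the floor at 24 h, so that their falls were at least 5.49-fold, 4.97-fold, 4.87-fold and 4.57-fold. Irf1, Igtp and Irgm1, which interferon gamma induces, did not pass, at -0.94, -0.78 and -0.73, while Ifng itself gave 15366 at 24 h against 16010.0 at 8 h (log2 -0.06). The chemokines Cxcl9 and Cxcl10, which interferon induces as well, did pass, with falls of 3.78-fold and 5.77-fold.

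Promoters of 4 interferon response genes are shown because 11 of the 16 with a single promoter (68.8%) held the letters of an interferon response element. These are GAAA with any 2 bases before a second GAAA, searched on both strands. They were in 3.46% of the promoters of scored genes, 3.58% of all promoters and 8.26% of those of the genes that fell. Capitals mark the matches. The stretches lie before the start at chr12:26456523-26456602 on the minus strand for Rsad2, chr19:34640755-34640834 on the plus strand for Ifit1, chr19:34583343-34583422 on the plus strand for Ifit3 and chr5:120907526-120907605 on the minus strand for Oas1a.
Rsad2: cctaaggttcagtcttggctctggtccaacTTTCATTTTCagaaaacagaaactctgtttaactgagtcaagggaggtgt
Ifit1: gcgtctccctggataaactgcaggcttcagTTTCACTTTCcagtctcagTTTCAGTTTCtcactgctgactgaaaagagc
Ifit3: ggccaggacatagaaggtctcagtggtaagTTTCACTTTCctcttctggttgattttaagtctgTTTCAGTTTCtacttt
Oas1a: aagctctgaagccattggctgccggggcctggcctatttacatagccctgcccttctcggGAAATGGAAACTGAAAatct
Oas1a, an RNA-degradation switch of the same response, fell by 2.75-fold.

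Some markers of other cell types fell between the same arrays, and in such bulk RNA fewer cells of a type and less RNA per cell cannot be told apart. Of 12 scored granulocyte markers, 6 fell and 0 rose, and their summed signal was 879.5 at 24 h against 4954 at 8 h. Sums of markers, here and below, are of deposited signals, with those under the floor not raised to it. Scaled to the hybridisation controls, 4 of the 12 were lower by 2-fold and their median went from -1.23 to -0.57. At 24 h Ctsg alone, at 156, was above the floor, and S100a8, a calcium-binding protein of neutrophils, fell at least 8.94-fold. Of 17 monocyte and macrophage markers, 4 fell and 0 rose, with sums of 4534 at 24 h and 9112 at 8 h. With the control scaling 1 was lower and 1 higher by 2-fold, and their median went from -0.53 to 0. On the deposited scale 5 of the 17 were at the floor at both times, where the floor sets the change to 0. Another 6 were at the floor at 24 h only. Csf1r, Cd14, Adgre1 and C1qb were under the floor at 24 h and above it at 8 h, and Lyz2 fell by 3.34-fold. C1qa and C1qc were under the floor at both times, and Hmox1 and Cd68 were higher at 24 h without passing, at 0.80 and 0.21.

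B cell markers had 5 lower and 0 higher of 13, with sums of 8995 at 24 h and 17546 at 8 h. Scaled to the hybridisation controls, 0 of the 13 were lower by 2-fold and their median went from -0.82 to -0.03. Cd79b gave 243 at 24 h against 612 at 8 h and Ms4a1 (CD20) gave 439 at 24 h against 1110.5 at 8 h, while Pax5 was under the floor at both times. Immunoglobulin genes held some of the largest falls. Jchain, which joins secreted antibody chains, gave 15207 at 0 h, 13093 at 4 h, 3383 at 8 h and 269.8 at 24 h, a 12.5-fold fall, Iglv1 fell by 6.27-fold and Igha by at least 10.8-fold. Of the 6 plasma cell markers only Jchain passed. Sdc1 and Prdm1 stood at -0.62 and -0.76, and Xbp1, which activated T cells also express, at 0.41 with 10737 at 24 h against 8105 at 8 h. Dendritic and natural killer markers had 1 lower of 5 and of 4, red cell markers 0 of 6, and platelet markers had 1 higher of 4 (Pf4, 1.27). Scaled to the hybridisation controls, the dendritic, natural killer and red cell medians change sign, to 0.17, 0.37 and 0.79 against -0.15, -0.59 and -0.05 on the deposited scale. The part of these markers in the falls of other genes was not tested.

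Among chemokines 4 of 15 fell and 0 rose (median -0.68, or 0.13 scaled to the hybridisation controls). Ccl5, a chemoattractant of T cells and monocytes, gave 7116 at 0 h, 4639.9 at 4 h, 2116 at 8 h and 360.4 at 24 h, a 5.87-fold fall. Cxcl10 and Cxcl9, ligands of the receptor Cxcr3 induced by interferon, fell by 5.77-fold and 3.78-fold, and Cxcl11 by at least 2.20-fold. Cxcl10 gave 119 at 0 h, 10028 at 4 h, 5224 at 8 h and 905 at 24 h. Ccl3 and Ccl4, made by activated T cells, stood at 0.19 and -0.68.

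Of 20 scored cytokines of T cells, 3 fell and 0 rose, with a median of -0.19 (0.67 scaled to the hybridisation controls). Il2, which drives the growth of activated T cells, gave 129 at 0 h, 12882 at 4 h, 8782 at 8 h and 7257 at 24 h, a change of -0.28, and Ifng gave 564 at 0 h, 6989 at 4 h, 16010.0 at 8 h and 15366 at 24 h. Tnf fell by 5.22-fold (683 at 24 h against 3567 at 8 h), and Il4, the cytokine of type 2 help, by 2.66-fold (1884 at 24 h against 5019 at 8 h). Lif stood at -1.17 in its brighter probe set and 0.46 in the other. Il21 and Il3 were higher without passing 2-fold, at 0.91 and 0.91.

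Cytokine receptors and their kinases gave 1 higher and 6 lower of 20 (median -0.37, or 0.58 scaled to the hybridisation controls). Il12rb1, the chain shared by the IL-12 and IL-23 receptors, rose by 4.14-fold, with 500.1 at 0 h, 392 at 4 h, 515 at 8 h and 2129 at 24 h. Il2ra, the high-affinity chain of the IL-2 receptor, gave 4149.5 at 24 h against 4818 at 8 h (-0.22), and Il2rb stood at 0.34. Il18r1 and Il18rap, the chains of the IL-18 receptor, fell (-1.66 and -1.19), as did the decoy receptor Il1r2 (-1.83) and the kinase Jak2 (-1.56).

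Of 14 cytotoxic granule genes, 1 rose and 3 fell (median -0.15, or 0.76 scaled to the hybridisation controls). Gzmb, the granzyme that triggers death of target cells, gave 426 at 0 h, 1121 at 4 h, 5075 at 8 h and 23388 at 24 h, a 4.61-fold rise, whereas Gzma gave 1087 at 0 h, 909.5 at 4 h, 1952 at 8 h and 394 at 24 h, a 4.95-fold fall. Gzmk fell by at least 2.03-fold and the death ligand Fasl by 2.89-fold, while the pore-forming Prf1 stood at 0.55. Natural killer markers, which share granzymes with T cells, summed to 1324 at 24 h and 1846 at 8 h.

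Of 23 costimulatory and inhibitory receptors, 1 rose and 4 fell. Lag3, which restrains T cells at MHC class II, rose by 1.13, and Ctla4, Icos and Pdcd1 stood at -0.83, -0.37 and -0.48. Fas and Tnfsf11 (RANKL) fell by 2.36-fold and 2.76-fold. Tnfrsf1b, the second TNF receptor, has no settled direction, with -1.39 in its brighter probe set and 1.87 in the other.

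Lineage factors of helper cells gave 8 lower and 0 higher of 19, with a median of -0.90 (0.01 scaled to the hybridisation controls). Rora, a factor of Th17 and innate cells, fell by 4.29-fold, with -1.66 to -0.09 in its other probe sets. Bcl6, of follicular helpers, gave 303 at 24 h against 1151 at 8 h, and Eomes, of memory and killer cells, gave 585 at 24 h against 2106 at 8 h. Foxp3, of regulatory T cells, fell at least 3.16-fold to a 24 h signal under the floor. Gata3, of type 2 help, gave 556 at 0 h, 769 at 4 h, 1533 at 8 h and 558 at 24 h, a fall of 2.75-fold, and Tbx21, of type 1 help, stood at -0.93.

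Genes of naive and resting T cells gave 6 lower and 0 higher of 18, with a median of -0.69 (0.26 scaled to the hybridisation controls). Klf2, which keeps T cells quiescent and recirculating, gave 7773 at 0 h, 4736 at 4 h, 3224 at 8 h and 629.7 at 24 h, a 5.12-fold fall. Its target S1pr1, the receptor for leaving lymphoid tissue, fell by 2.27-fold, and Klf3, Txk and Btg1 by 2.41-fold, 2.27-fold and 2.22-fold. Il7r, Ccr7 and Foxo1 did not pass, at -0.74, -0.38 and -0.79, and Lef1, of naive cells too, stood at 0.50. Among homing receptors Cxcr4 fell by 4.32-fold and Ccr4 rose by 2.20-fold, with 1 higher and 2 lower of 16 (median -0.42, or 0.40 scaled to the hybridisation controls). Within the T cell receptor list Cd4 stood at 0.98 with 2.06 in its other probe set, Cd8a at 0.56 and Cd3e at -0.35, and the adaptor Trat1 alone passed in its brightest probe set, with 629.7 at 24 h against 2467 at 8 h.

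Of 32 ribosome biogenesis factors, 21 translation factors and 18 aminoacyl-tRNA synthetases, 0 passed 2-fold in either direction. Their medians were -0.05, 0.02 and -0.30, or 0.91, 0.97 and 0.65 scaled to the hybridisation controls, and that of ribosome biogenesis was 0.09 with each array divided by its median. Nucleolin Ncl gave 15915 at 0 h, 29913 at 4 h, 31851 at 8 h and 31491 at 24 h, a change of -0.02, and Npm1 changed by -0.21. Cytosolic ribosomal proteins, 36 scored with 0 past 2-fold, had a median of -0.49, against 0.00 after quantile normalization and 0.46 scaled to the hybridisation controls. Their direction therefore depended on the scaling.

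Of 19 ATF4 stress, serine and one-carbon genes, 6 fell and 0 rose, with a median of -0.69 (0.26 scaled to the hybridisation controls), and 14 were highest at 8 h. Ddit3, the stress factor CHOP, gave 781 at 0 h, 2199.6 at 4 h, 2166 at 8 h and 824 at 24 h, a 2.63-fold fall, and Chac1, which degrades glutathione, fell by 2.12-fold. Herpud1 and Sesn2 fell in their brighter probe sets (-1.46 and -1.12) but stood at -0.48 and -0.09 in the others. Atf4 changed by -0.40 and the serine enzymes Phgdh and Psat1 by -0.44 and -0.28. Of 13 amino acid transporters 3 fell and 0 rose (median -0.61, or 0.18 scaled to the hybridisation controls). Slc7a5, the leucine transporter of activated T cells, gave 369.5 at 0 h, 3050.5 at 4 h, 6685 at 8 h and 2685 at 24 h, a 2.49-fold fall. Its heavy chain Slc3a2 stood at -0.77.

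Mitochondrial genes had medians above 0 with few members past 2-fold. The 44 scored subunits of oxidative phosphorylation lay between -0.18 and 0.89, 39 of them above 0, with a median of 0.39 and 35 highest at 24 h. Ndufa8 of complex I stood at 0.89, Sdhd of complex II at 0.82 and Cox8a of complex IV at 0.78. Of 34 mitochondrial ribosome and import genes 2 passed, Mrpl18 (1.33) and Mrpl4 (1.24), with a median of 0.39. Proteasome subunits had a median of 0.34, with 31 of 32 highest at 24 h and 1 past 2-fold, the lid subunit Psmd13 (1.06, with 0.64 in another probe set).

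Glycolysis and hypoxia-inducible genes gave 3 higher and 1 lower of 24 (median 0.28). Tpi1, triose phosphate isomerase, gave 2974 at 0 h, 1125 at 4 h, 1771 at 8 h and 9634 at 24 h, a 5.44-fold rise seen in its other probe sets too (2.44 to 2.79). Bnip3 and Egln3, both induced by low oxygen, rose by 1.25 and 1.55, whereas Ndrg1, induced by hypoxia and other stress, gave 450.0 at 0 h, 3268 at 4 h, 4306 at 8 h and 583 at 24 h, a 7.39-fold fall with -2.88 to -1.81 in its other probe sets. The glucose transporter Slc2a1 and hexokinase Hk2 stood at 0.38 and -0.05. The array's Gapdh control probe sets, of another enzyme of glycolysis, rose by 0.81 to 1.13. In lipid synthesis 4 of 28 rose and 2 fell (median 0.35). The desaturase Scd2 rose by 1.77 and Dhcr7, of the last step to cholesterol, by 1.37, while the cholesterol exporter Abca1 fell at least 2.80-fold to a signal under the floor. The transferrin receptor control probe sets of the array, which read the iron uptake receptor of dividing cells, rose by 1.71 (3′), 2.45 (5′) and 2.49 (middle). The beta-actin controls stood at -0.52 (3′), -0.36 (middle) and -0.31 (5′). The 18S ribosomal RNA controls stood at -1.85 (5′), -1.05 (3′) and -0.71 (middle). The 3′ change was the lowest for Gapdh, transferrin receptor and beta-actin but not for 18S, so the sizes depended on position. The cause was not tested.

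The p53 response list moved in both directions, with 5 higher and 4 lower of 18 (median 0.35). Zmat3 gave 476 at 0 h, 329 at 4 h, 496 at 8 h and 2129 at 24 h, Phlda3, which restrains the kinase Akt, gave 200.2 at 0 h, 174 at 4 h, 414 at 8 h and 1588 at 24 h and cyclin G1, Ccng1, gave 3961 at 0 h, 1894 at 4 h, 2842 at 8 h and 8868 at 24 h. They rose by 4.29-fold, 3.83-fold and 3.12-fold. Gadd45b and Btg2, which NF-kB or growth signals induce as well, fell (-1.80 and -1.50), although Gadd45b ranged over -2.27 to 0.09 in its other probe sets, and Mdm2 and Cdkn1a stood at 0.14 and 0.51. In the BCL2 family 1 of 11 passed (median -0.14, or 0.81 scaled to the hybridisation controls). Bcl2l11, the death-promoting BIM, gave 5788 at 0 h, 9174 at 4 h, 11208 at 8 h and 2755 at 24 h, a 4.07-fold fall with -2.21 to -0.56 in its other probe sets. Mcl1, Bcl2l1 and Bcl2 stood at -0.45, -0.26 and -0.14, with -0.96 to 0.35 in other probe sets of Mcl1 and 0.59 to 0.78 in those of Bcl2l1. The inducible heat shock genes Hspa1a and Hspa1b fell (-1.85 and -1.81) while the other 20 chaperone genes did not pass (list median -0.04, or 0.91 scaled to the hybridisation controls). Near-identical copies such as these may share probes.

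Genes for the presentation of peptides on MHC class I did not pass in any of 13 cases (median -0.05, or 0.91 scaled to the hybridisation controls), with B2m at -0.59, Tap1 at -0.39 and H2-K1 at -0.74. Splicing factors gave 2 higher of 27, Sf3a3 (1.25) and Snrpa1 (1.15), with 0.53 and 0.22 to 0.62 in their other probe sets (list median -0.03, or 0.92 scaled to the hybridisation controls). Among the annexin, calcium-binding and cytoskeleton genes 3 of 17 rose and 1 fell (median -0.13, or 0.80 scaled to the hybridisation controls). Lgals3, a galactose-binding lectin, and the surface protein Cd52 rose by 1.19 and 1.33, S100a4 fell at least 2.84-fold to under the floor, and the tubulin Tubb5 had no settled direction, with 1.66 in 1 probe set and -1.34 in the other.

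Several of the largest changes lay outside the lists. Ramp3, which pairs with the receptors for adrenomedullin, gave 331 at 0 h, 7729 at 4 h, 2276 at 8 h and 214 at 24 h, a 10.6-fold fall. Plagl1, a zinc finger factor that restrains proliferation, fell by 6.47-fold (888 at 24 h against 5748 at 8 h), and Mndal, a member of the interferon-inducible Ifi200 family, by 6.86-fold. Il12b, the shared subunit of IL-12 and IL-23 made by myeloid cells, fell at least 5.58-fold to a signal under the floor. Metrn rose by 2.43, and the mitochondrial aspartate and glutamate carrier Slc25a13 rose by at least 2.27. Ergic1, a membrane protein of the early secretory pathway, rose by 2.25, with a range of -0.04 to 2.29 over its other probe sets.

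The same step was measured in the knockout-labelled arrays, which share no array with the wild-type pair. Of the 8457 genes, 522 (6.17%) were at least 2-fold higher at 24 h than at 8 h there and 618 (7.31%) at least 2-fold lower. Genes higher in both genotypes numbered 64, which is 14.9% of the wild-type and 12.3% of the knockout list. Genes lower in both numbered 133, or 23.5% and 21.5%. Another 46 were higher in wild type and lower in the knockout-labelled pair (10.7% of the wild-type list), and 33 were lower in wild type and higher in the other (5.83%). Across the 6632 genes above the floor on all 4 arrays the changes correlated at r = 0.17 (rho = 0.14), where genes are not independent replicates.

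**Figure D4:**
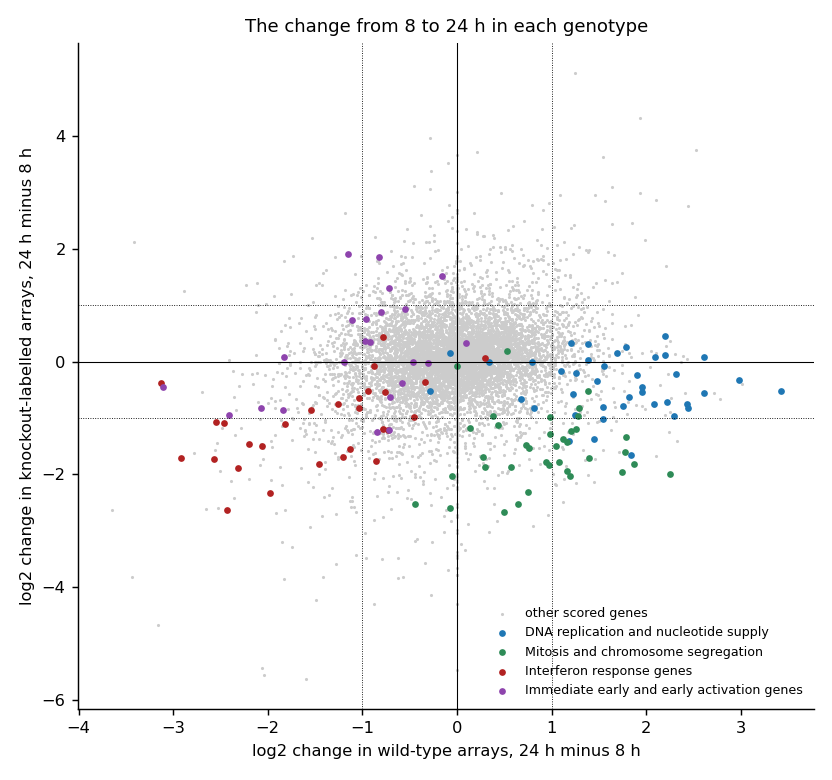
Log2 change at 24 h against 8 h in the knockout-labelled arrays (vertical) against that in the wild-type arrays (horizontal), 1 point per scored gene, with dotted lines at 2-fold. Of the replication and mitosis genes, 38 of 40 and 33 of 37 lie to the right of 0, with medians of 1.72 and 0.98 in wild type and -0.49 and -1.61 in the knockout-labelled pair, while the interferon response genes have medians below 0 in both (-1.23 and -1.09).

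Set side by side, interferon response genes had a median of -1.23 in wild type and -1.09 in the knockout-labelled pair, with 18 and 16 of 28 lower. Mitosis genes had 0.98 and -1.61, with 17 of 37 higher in wild type and 30 lower in the knockout-labelled pair. Replication genes had 1.72 and -0.49, with 34 of 40 higher in wild type and 0 higher and 4 lower in the other. Bub1 gave 766 at 24 h and 161 at 8 h in wild type (2.25) and 360.1 at 24 h and 1437 at 8 h in the knockout-labelled cells, so that the 8 h signals lay further apart than those at 24 h. Cdc6 gave 507 at 24 h and 726 at 8 h in the knockout-labelled cells, a change of -0.52.

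Of 24 glycolysis genes 3 rose in wild type and 19 in the knockout-labelled pair, and of 18 p53 response genes 5 and 10. ATF4 genes had -0.69 and -1.19, and early activation genes -0.84 and 0.07. Cell type markers moved between the same arrays. T cell identity genes had medians of 0.01 in wild type and 1.36 in the knockout-labelled pair. Granulocyte markers summed to 879.5 at 24 h and 4954 at 8 h in wild type, and to 5784 at 24 h and 116019 at 8 h in the knockout-labelled cells. Signals under the floor entered these sums as deposited. The hybridisation controls moved in opposite directions in the genotypes, as given above. With 1 array per genotype and time, no difference between the genotypes was tested, and the part of these markers and controls in it was not tested.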

How the data were processed

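RNA of wild-type and knockout-labelled mouse splenic T cells was measured on 8 arrays, 1 per genotype at 0, 4, 8 and 24 h. The labels' protocols name TRIzol extraction and biotin-labelled cRNA from about 1 µg of RNA. The deposited values are signal intensity on a linear scale, per the submitters' processing notes from GCOS 1.4 and MAS5. Their settings are not given in the sources used here.

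Of the 22690 probe sets in the table, 64 were controls, and 0 per-sample columns went unused. Signals were used as deposited, raised to a floor of 141.88 (the median over arrays of the 40th percentile) and put on the log2 scale. Those over the floor on 2 or more arrays were kept (15062). Sums of signals over a list used the deposited values, not raised to the floor. By GEO's platform annotation 20380 probe sets had 1 symbol, 691 several and 1555 none, and 0 symbols changed on update through RefSeq. A gene was its probe set with the highest mean log2 value, which left 8457 of 12393 genes. A change is the 24 h value minus the 8 h value, called at 2-fold, with 1 array on each side and therefore no test. The number of arrays limits the precision.

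Genes were named by rule: the 20 largest rises and falls above the floor on both arrays, the 8 largest each way with 1 side at the floor, and up to 4 members with the largest changes and 2 defining members of each of 42 lists (953 genes, 816 scored). Other list members were named for their role after their values were seen. The comparison and the lists were chosen with earlier results of these data known. Alternatives were quantile normalization, division by each array's median, floors at the 20th or 60th percentile, log2 of the signal plus the floor, no filter, a filter on the compared arrays, a gene's median over probe sets, and thresholds of 1.5 and 4. Scaling to the hybridisation controls was added after seeing the data. Of the steps, only the 2-fold rule for probe sets was tried on simulated data, with larger changes placed on bright probe sets. The choice of probe set per gene, the lists, the scalings and the promoter matches were not. Tools were python 3.11.15, numpy 2.4.6, pandas 2.3.3 and matplotlib 3.10.9.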

Additional observations from a re-analysis of the deposited data

Results flagged for a closer look

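The genes below were named in the wild-type comparison and moved at least 2-fold one way in wild type and at least 2-fold the other way in the knockout-labelled pair, 24 h against 8 h. The difference between the genotypes was not tested, since each genotype and time had 1 array.

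These cell cycle genes were higher at 24 h in wild type and lower in the knockout-labelled pair. Of the 429 genes higher in wild type, 46 (10.7%) were lower in that pair, as were 7.31% of all scored genes. Scaled to the hybridisation controls, 408 genes were in this class. On the log2 scale, Aurkb changed by 1.88 in wild type and -1.81 in the knockout-labelled pair, and in the same genotypes Mad2l1 by 1.79 and -1.34, Ccna2 by 1.78 and -1.61, and Cdk1 by 1.74 and -1.95. Bub1 changed by 2.25 in wild type, and gave 360.1 at 24 h and 1437 at 8 h in the knockout-labelled pair. Mcm10 changed by 2.33 in wild type and -1.41 in the knockout-labelled pair. For Lrr1 the change was at least 2.24 in wild type and -1.25 in the knockout-labelled pair, and for E2f8 at least 1.44 and at most -2.14, each against a signal at the floor. The other probe sets of Lrr1 gave 0.28 to 0.54 in wild type and that of Ccna2 gave 0.93, short of 2-fold. That of Bub1 stayed at the floor, and that of Aurkb passed at 1.42.

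Other named genes were lower in wild type and higher in the other pair. Of the 566 genes lower in wild type, 33 (5.83%) were higher in the other pair, as were 6.17% of all scored genes. Scaled to the hybridisation controls, which moved by -0.93 in wild type and 0.48 in the other pair, this class held 1 gene. Gata3 changed by -1.46 in wild type and 1.39 in the knockout-labelled pair, Il4 by -1.41 and at least 1.57, Fasl by -1.53 and 2.18, Txk by -1.18 and 2.63, Cxcr4 by -2.11 and 1.38, Il1r2 by -1.83 and 1.78, and Dusp1 by -2.02 and 1.03. Ramp3 changed by -3.41 in wild type and 2.11 in the knockout-labelled pair and Ndrg1 by -2.89 and 1.25. Between the same arrays the T cell identity list had medians of 0.01 in wild type and 1.36 in the knockout-labelled pair, and the granulocyte list -1.23 and -3.89. In wild type 10 of the 12 granulocyte genes were at the floor at 24 h only and 1 at both times. The floor thus bounds the -1.23, and the 2 granulocyte medians are not like sizes. The part of these lists in these differences was not tested.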

How the results depend on the processing

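Counts are given as probe sets higher and lower, genes higher and lower, genes higher in both genotypes, lower in both, higher in wild type and lower in the knockout-labelled pair, and the reverse of that. They were 831, 1034, 429, 566, 64, 133, 46 and 33 as reported. With the floor at the 20th percentile they were 1481, 2974, 755, 1676, 142, 258, 90 and 277, and at the 60th percentile 425, 470, 243, 273, 27, 49, 18 and 16. With log2 of the signal plus the floor they were 531, 636, 269, 371, 32, 85, 23 and 18. At a threshold of 1.5-fold they were 2205, 2737, 1180, 1470, 293, 386, 179 and 220, and at 4-fold 85, 86, 41, 55, 3, 11, 0 and 1. Scaled to the hybridisation controls they were 5613, 112, 3216, 68, 98, 43, 408 and 1, with the middle gene at 0.80. The other settings kept these counts within 1.5 times, with 901 and 891 probe sets under quantile normalization and 1206 and 810 after division by the median of each array. The control scaling also moved the list medians to 2.67 for replication, 1.78 for mitosis, -0.28 for interferon response, 0.11 for early activation, 0.26 for ATF4, 1.34 for oxidative phosphorylation and 0.46 for ribosomal proteins. The ribosomal median was -0.0049 under quantile normalization, and that of mitosis 0.31 at the 60th percentile floor. Tnfrsf1b turned to 0.24 by the median over its probe sets, against -1.39. Of 145 named genes past 2-fold, all kept their direction under quantile normalization, division by the median, control scaling, the lower floor and both filters, and 140, 138, 95, 145, 145 and 145 were still past 2-fold. For division by the median and control scaling the direction was nearly fixed beforehand. Each applies 1 factor per array, and the factors of the compared arrays lay less than 2-fold apart. The filters change only which probe sets are scored. The cause of the shifts in counts and medians was not tested, apart from the fewer or more values that a floor or threshold admits. No paired analysis was possible because each genotype and time had 1 array. Signals near the floor limit what can be seen of dim genes.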

Other observations

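Single members of the short lists of other cell types gave these values. The dendritic cell genes Ccl22 and Fscn1 changed by -0.78 and 0.73, and Zbtb46 fell at least 2.14-fold to under the floor. Natural killer receptors were dim: Klrg1 fell by 2.03-fold (157 at 24 h against 319.9 at 8 h), while Klrd1 and Klrc1, which killer T cells also carry, stood at -0.20 and -0.59. The red cell genes Car1 and Klf1 changed by 0.39 and 0.32, and the platelet chemokine Pf4 gave 1004 at 24 h and 418 at 8 h, a rise of 2.40-fold.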
